A study of Mus musculus with 6 samples.

Results

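The proteasome genes of the mouse were followed in liver from mice in which an SV40 oncoprotein had been switched on for 4 days. They were taken as every probe set with a single gene symbol of the Psma, Psmb, Psmc, Psmd, Psme, Psmf or Psmg series. This gave 106 of the 45265 probe sets, 85 of the 22690 on the 430A array and 21 of the 22575 on the 430B array, and they stood for 49 of 18193 genes. Of the 49, 29 had more than 1 probe set and Psmd11 had 8, the most of any. A single probe set shared by Psme2 and Psme2b was left out, so Psme2 is not described. The naming rule also takes in Psmc3ip (HOP2, which acts in meiotic recombination) and Psme3ip1, neither of which encodes a proteasome subunit. Both are counted among the 49, and the counts are also given without them.

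The 26S proteasome is the main protease of the cytosol and nucleus, and it breaks down proteins marked with ubiquitin chains. Its 20S core is a barrel of outer alpha rings and inner beta rings, and the beta subunits Psmb5, Psmb6 and Psmb7 carry the cutting sites. The 19S particle caps the barrel: its base holds a ring of ATPases (Psmc1 to Psmc6) that unfolds substrates and feeds them into the core, and its lid holds Psmd14, the enzyme that removes the ubiquitin chain. In cells exposed to interferon gamma, and constitutively in many immune cells, Psmb8, Psmb9 and Psmb10 take the places of the standard cutting subunits and form the immunoproteasome, which supplies peptides for MHC class I. Hepatocytes mostly hold the standard form.

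The mice were B6SJL hybrid males of 32 to 37 days, and all of them, the wild type included, had doxycycline at 25 µg/ml and 2.5% sucrose in the drinking water for 4 days. WT mice had no transgene. LT mice carried ApoErtTA, a doxycycline-dependent activator, together with a TRE2-TAg construct, and expressed large T antigen, a binder of p53 and of the retinoblastoma family, along with small t. 17kT mice are labelled with the same pair, ApoErtTA and a TRE2-TAg construct (TRE2-TA in the genotype field), and expressed 17kT, a shorter T antigen that keeps retinoblastoma binding and lacks the p53-binding part, also along with small t. The effect of ApoErtTA and that of the viral proteins cannot be told apart in a comparison with WT. Each genotype gave 1 array per design, 6 in all, and the design text calls them single measurements, so there is no replicate, no error between animals and no test for any value below. The labels do not state how many mice stood behind an RNA sample.

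The values are array signals on a linear scale. A floor was set at the median signal of each design (90.4 on 430A and 140.5 on 430B), and ratios were taken on the log2 scale after raising lower signals to it, within a design only. A gene was represented by its brightest probe set relative to the floor. It was called higher or lower at 2-fold, a log2 ratio of 1, and where an array was at the floor the ratio is a bound. Signals of different probe sets are not on a common scale, so levels are compared between genotypes and not between genes. The arrays had between 47.0% and 52.0% of probe sets above the floor. The ratio of 3' to 5' signal for Gapdh, a sign of RNA integrity, was 5.81 and 6.04 on the WT arrays against 2.85 to 3.53 on the other arrays, and its part in the results was not tested. The LT arrays alone were washed on fluidics station 2, so station and genotype cannot be told apart there. Of 8 hepatocyte markers on the arrays, all were above the floor, as the tissue label would have it. They were lower in the transgenic livers: 8 of 8 were below 0 in LT (median -0.37, 0 past 2-fold) and 7 of 8 in 17kT (median -0.64, 2 at least 2-fold lower), and the 7 on 430A summed to 137074 in WT, 102407 in LT and 90107.5 in 17kT. Of 9 measured endothelial markers, 3 were at least 2-fold lower in LT (median -0.61), and 2 lower and 1 higher in 17kT (median -0.39). The part of these markers in the proteasome values was not tested. All 9 measured markers of dividing cells were at least 2-fold higher in both transgenic livers than in WT, with medians of 3.28 in LT and 3.56 in 17kT. Beside these marker counts, 9.01% of all measured genes were at least 2-fold lower and 11.1% higher in LT. In 17kT 8.64% were lower and 9.97% higher. A lower share of a cell type and less RNA per cell cannot be told apart in whole liver.

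Few proteasome transcripts passed 2-fold between the genotypes. Of the 106 probe sets, 77 were above the floor on all 3 arrays of their design, 22 were at it on all 3 and 7 were mixed. Of the 49 genes, 46 were above the floor on all 3 arrays of their design and 48 were measured in each comparison. In LT against WT 1 gene was at least 2-fold higher (Psmc3ip, no proteasome subunit) and 1 at least 2-fold lower (Psma5), against 20.1% of the 12775 measured genes past 2-fold (11.1% higher, 9.01% lower). In 17kT against WT 1 gene was higher, again Psmc3ip, and 0 lower, with 18.6% of 12992 measured genes past it (9.97% higher and 8.64% lower). Without Psmc3ip and Psme3ip1, a choice made after the values were seen, 46 genes were measured: 0 were higher and 1 lower in LT, and 0 passed either way in 17kT. Their medians were 0.22 (SD 0.39) and 0.13 (SD 0.37). At a looser 1.5-fold, 5 genes were higher and 2 lower in LT, where 43.2% of all measured genes passed (23.1% higher, 20.1% lower). In 17kT 8 were higher and 2 lower, where 40.3% of genes passed (22.7% higher, 17.6% lower).

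The ratios lay in a narrow band shifted slightly above 0. The median over the 48 genes was 0.22 (SD among genes 0.42) in LT against WT, next to 0.02 (SD 0.91) over all measured genes. It was 0.13 (SD 0.46) in 17kT against WT, next to 0.07 (SD 0.91). In LT 35 of 48 genes were above 0, with 51.1% of all measured genes there, and in 17kT 33 of 48 were, with 54.8%. Proteasome genes are bright on these arrays, so they were also set beside bright genes, a choice made after the values were seen: among the 38 whose mean exceeded 4 times the floor, 0 were higher and 1 lower in LT, while 26.2% of the 5024 genes that bright passed 2-fold (14.9% higher, 11.2% lower). In LT 28 of the 38 were above 0, with 58.9% of bright genes there, and their median of 0.20 was close to the 0.18 of all bright genes. In 17kT 0 of the 38 passed 2-fold either way, next to 24.2% of bright genes (11.3% higher, 12.9% lower), and 26 were above 0, with 54.6% of bright genes. There the medians were 0.11 and 0.07. By the median, the shift above 0 was thus nearly that of genes of like brightness. By the share above 0 it was larger, with 73.7% of the 38 in LT and 68.4% in 17kT.

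**Figure D1:**
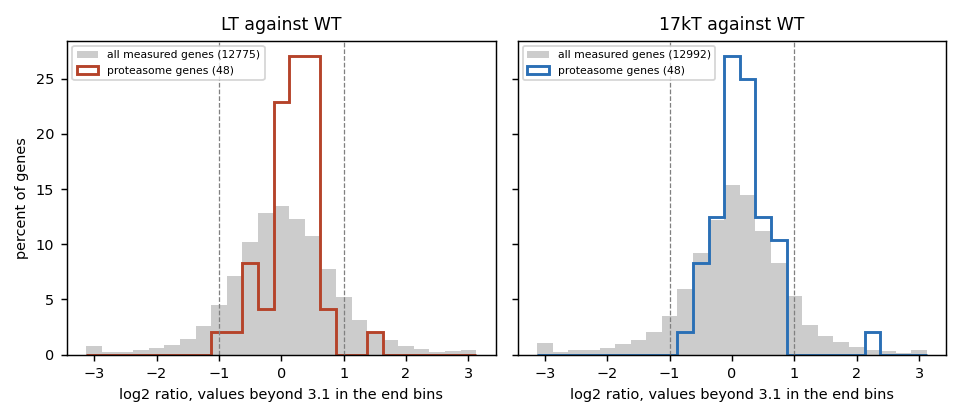
Histograms of the log2 ratio against WT in LT (left) and 17kT (right), as the percent of genes per bin of 0.25, for all measured genes (grey) and the 48 measured proteasome genes (outline); dashed lines mark 2-fold and values beyond 3.1 are in the end bins. The proteasome genes sit inside the 2-fold lines except Psma5 and Psmc3ip in LT and Psmc3ip in 17kT.

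Of the genes past 2-fold, Psma5 encodes alpha 5, a member of the outer ring of the core. Its brightest probe set had a signal of 1459 in WT, 702 in LT and 872 in 17kT, so WT was above both transgenic livers. The log2 ratio was -1.06 in LT (2.08-fold lower) and -0.74 in 17kT (1.67-fold lower, not past 2-fold). Another probe set of Psma5 gave 639, 479 and 578, in the same order but with smaller ratios of -0.42 and -0.14, so the size of the difference depends on the probe set. Averaged over both, LT against WT was -0.74 and no longer past 2-fold.

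Psmc3ip had a signal of 18.1 in WT, below the floor, 243 in LT and 396 in 17kT. LT was at least 2.69-fold and 17kT at least 4.38-fold above WT. Its probe set on 430B, above the floor everywhere, read 201 in WT, 407 in LT and 384 in 17kT, ratios of 1.02 and 0.93. Both probe sets put the WT array lowest, while the order of LT and 17kT differed between them. Psme3ip1, whose product binds the PA28 gamma activator, stayed near WT, with 276 in WT, 299.5 in LT and 239.8 in 17kT.

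The bases before the annotated start of these genes are shown because they are the 2 genes that passed 2-fold. They were read 5′ to 3′ on the strand of the gene from RefSeq on GRCm38.p6, and capitals mark a match to one of the motifs listed further on. The Psma5 stretch held none of them, and that of Psmc3ip held a CCAAT box 36 bases before the start.
Psma5, chr3:108256676-108256925, plus strand: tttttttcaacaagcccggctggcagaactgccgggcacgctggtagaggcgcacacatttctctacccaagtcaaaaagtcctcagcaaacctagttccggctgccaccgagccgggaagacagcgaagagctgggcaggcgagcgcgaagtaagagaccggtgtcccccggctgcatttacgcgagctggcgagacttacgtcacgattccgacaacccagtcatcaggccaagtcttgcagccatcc
Psmc3ip, chr11:101095436-101095685, minus strand: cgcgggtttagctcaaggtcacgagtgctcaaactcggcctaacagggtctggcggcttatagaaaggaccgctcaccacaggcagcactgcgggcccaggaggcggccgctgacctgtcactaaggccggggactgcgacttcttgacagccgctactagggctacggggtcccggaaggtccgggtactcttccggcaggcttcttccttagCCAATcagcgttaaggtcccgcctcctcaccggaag

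**Figure D2:**
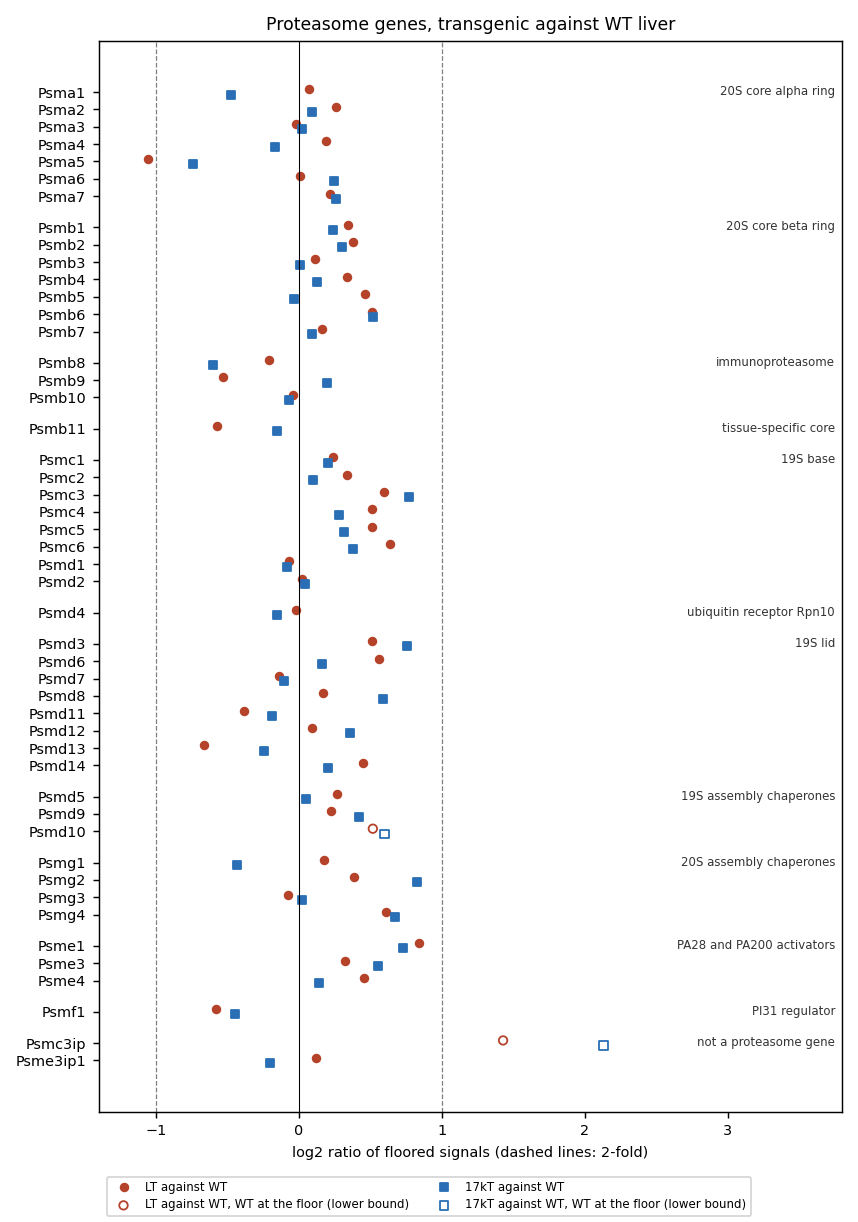
Log2 ratio of each of the 48 measured genes in LT against WT (circles) and 17kT against WT (squares), grouped by place in the complex; open symbols are lower bounds because WT was at the floor, and dashed lines mark 2-fold. The 6 base ATPases and the 7 beta subunits lie to the right of 0 in LT, while the 3 immunoproteasome subunits lie to the left.

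Within the 20S core the alpha and beta rings differed in their medians. The 7 alpha subunits had a median of 0.07 in LT and 0.02 in 17kT, with 5 and 4 of 7 above 0; without Psma5 their LT ratios ran from -0.02 (Psma3) to 0.26 (Psma2). Psma1, on both designs, was near WT in LT on each (0.05 and 0.07), but in 17kT it was 0.10 on 430A and -0.48 on 430B. A dimmer probe set of Psma7 gave 0.41 in LT and 0.37 in 17kT, outside that range. For Psma6, a dim probe set open to other transcripts gave 0.09 and 1.20, where a brighter one of that type gave 0.17 and 0.21. The 7 standard beta subunits had a median of 0.34 in LT, from 0.11 (Psmb3) to 0.51 (Psmb6), all 7 above 0, and of 0.12 in 17kT, with 6 of 7 above 0. These counts are for the brightest probe sets: a dimmer one of Psmb1 gave -0.26 in LT and -0.24 in 17kT, and one of Psmb3 gave 0.03 and -0.43. By the brightest, none of the beta subunits passed 2-fold or 1.5-fold in either comparison.

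Psmb6, the beta 1 subunit that cuts after acidic residues, had the largest ratio of the core in both transgenic livers. Its signals were 1177 in WT, 1676 in LT and 1686 in 17kT, ratios of 0.51 and 0.52, so LT and 17kT were close to each other and both above WT. Psmb7, the beta 2 subunit with trypsin-like activity, read 4809, 5373 and 5122, ratios of 0.16 and 0.09. Psmb5, the beta 5 subunit with chymotrypsin-like activity, is on both designs: it read 1994, 2390.1 and 2124 on 430A and 8748, 12044 and 8549 on 430B. LT was highest on both, with ratios of 0.26 and 0.46, while 17kT was near WT, with 0.09 and -0.03. Psmb4, which has no cutting site, read 2551, 3224 and 2777 (0.34 and 0.12), but a cross-reacting probe set (type _x_at, open to other transcripts) read 303, 596 and 854, ratios of 0.97 and 1.49.

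The core of the antioxidant response element (TGACNNNGC), to which NRF1 and NRF2, known activators of proteasome genes, bind, was in the upstream bases of 5 of 44 promoters (Psmb5, Psmb6, Psmc6, Psmd9 and Psmd12), 11.4%, next to 10.2% of all mouse promoters. Psmb6 is shown as the core gene with the largest ratio. Its match ended at the last base before the annotated start, and it stands beside Psmc6, the base ATPase with the largest ratio in LT, whose match began 227 bases before the start on the other strand.
Psmb6, chr11:70525107-70525356, plus strand: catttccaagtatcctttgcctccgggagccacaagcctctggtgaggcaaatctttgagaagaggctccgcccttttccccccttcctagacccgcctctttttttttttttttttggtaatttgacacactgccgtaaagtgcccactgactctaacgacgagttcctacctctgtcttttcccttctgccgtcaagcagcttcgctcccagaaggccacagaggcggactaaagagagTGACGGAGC
Psmc6, chr14:45329574-45329823, plus strand: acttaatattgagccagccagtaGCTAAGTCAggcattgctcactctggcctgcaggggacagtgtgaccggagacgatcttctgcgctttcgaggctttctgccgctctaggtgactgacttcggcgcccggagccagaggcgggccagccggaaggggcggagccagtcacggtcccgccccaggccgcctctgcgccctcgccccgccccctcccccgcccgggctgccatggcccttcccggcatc

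The base of the 19S particle had the highest medians of the 26S subcomplexes, 0.42 in LT and 0.24 in 17kT over 8 genes, with 0 past 2-fold. By the brightest probe sets its ATPase ring lay above its scaffold subunits, but in 17kT the ranges came close (0.10 for Psmc2, 0.04 for Psmd2). All 6 ATPases were above 0 in both comparisons, with a median of 0.51 (0.24 to 0.63) in LT and 0.30 (0.10 to 0.77) in 17kT. The scaffold subunits Psmd1 and Psmd2, the largest proteins of the base, were level with WT: Psmd1 read 1183 in WT, 1128 in LT and 1117 in 17kT, ratios of -0.07 and -0.08, and Psmd2 had ratios of 0.02 and 0.04.

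Psmc6 (Rpt4) read 719.8 in WT, 1118 in LT and 934 in 17kT, ratios of 0.63 and 0.38. Psmc3 (Rpt5), with a single probe set, read 939, 1418 and 1598, ratios of 0.59 and 0.77. For both, each transgenic liver was above WT, but LT was the higher for Psmc6 and 17kT for Psmc3. Psmc5 (Rpt6), on both designs, had ratios of 0.73 and 0.51 in LT and of 0.58 and 0.31 in 17kT on 430A and 430B. Psmc4 (Rpt3) read 969, 1381 and 1177 (0.51 and 0.28), whereas its dimmer probe set read 277, 434 and 142 (0.65 and -0.96), so 17kT was above WT by the one and below it by the other. Psmc2 (Rpt1) read 1825, 2299 and 1949 (0.33 and 0.10), with 0.31 and 0.42 on an _x_at probe set, but its 430B probe set read 284, 143 and 227 (-0.99 and -0.32). Psmc1 (Rpt2) had ratios of 0.24 and 0.20. The count of 6 of 6 above 0 therefore holds for the brightest probe sets.

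The 8 lid subunits pointed both ways. Their median was 0.13 in LT and 0.18 in 17kT, 5 of 8 were above 0 in each, and 0 passed 2-fold. These values take Psmd13, whose probe sets disagree (below), by its brightest probe set. Psmd6 (Rpn7) read 1677 in WT, 2469.8 in LT and 1873 in 17kT, ratios of 0.56 and 0.16. Psmd3 (Rpn3) read 470.0, 669.6 and 793, ratios of 0.51 and 0.75, with both transgenic livers above WT. Psmd14 (Rpn11), the deubiquitinase, had ratios of 0.45 and 0.21, and Psmd8 (Rpn12) of 0.17 and 0.59. Psmd11 (Rpn6), which holds lid and core together, was below WT in both by its brightest probe set, at -0.38 and -0.19. Its other probe sets above the floor gave -0.48 and -0.28, -0.37 and -0.24, and, the other way, 0.08 and 0.12. Psmd12 (Rpn5) had ratios of 0.09 and 0.36 and Psmd7 (Rpn8), the partner of Psmd14, of -0.14 and -0.11. Sem1 (Rpn15), a small lid subunit outside the naming rule, read 358 in WT, 642 in LT and 689.6 in 17kT, ratios of 0.84 and 0.95. Psmd4 (Rpn10), a ubiquitin receptor counted apart from base and lid, had ratios of -0.02 and -0.15, and its other probe set above the floor gave 0.25 and 0.44.

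Psmd13 (Rpn9) was the lowest of the lid and the gene on which the probe sets disagreed most. The brightest, on 430B, read 1548 in WT, 979 in LT and 1305 in 17kT, ratios of -0.66 and -0.25. Another on 430B read 739, 556 and 388 (-0.41 and -0.93). A 430A probe set read 343, 923 and 720.2, which is 1.43 and 1.07, or 2.69-fold and 2.10-fold higher, and an _x_at probe set on 430A gave 0.02 and 0.07. The 430B probe sets put WT highest and the 430A ones put it lowest, so no direction is given for Psmd13.

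**Figure D3:**
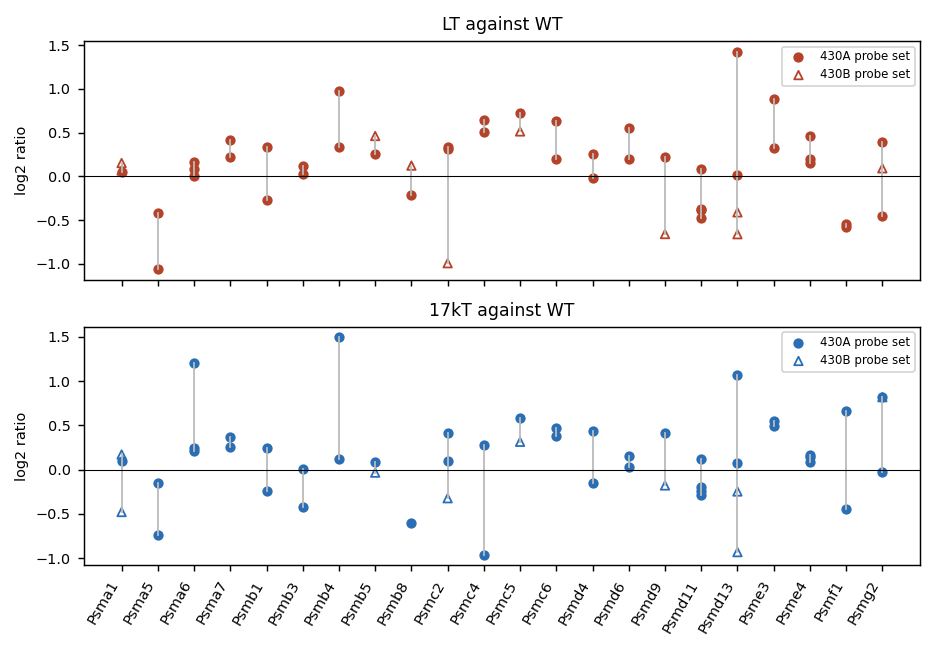
Log2 ratio against WT of each probe set above the floor on both arrays, for the 22 proteasome genes with more than 1 such probe set in LT; LT is in the upper panel and 17kT in the lower, filled circles are 430A and open triangles 430B, and a grey line joins the probe sets of a gene. Psmd13 spans the widest range in both panels, 2.09 in LT, while the median span of a gene is 0.35 in LT and 0.59 in 17kT.

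Disagreement of that size was uncommon. Of the 22 genes in LT against WT with at least 2 probe sets above the floor, 2 (Psmc2 and Psmd13) had probe sets of opposite sign more than 1 apart, and the median span was 0.35. In 17kT against WT it was 3 of 21 (Psmc4, Psmd13 and Psmf1), with a median span of 0.59. Repeat readings give the technical part of the error: for 100 probe sets present on both designs the SD of a log2 ratio was 0.23 in LT and 0.28 in 17kT, and for pairs of different probe sets of a proteasome gene it was 0.36 and 0.49. No spread between animals can be set beside these values.

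The immunoproteasome subunits were not above WT in LT. Psmb8 (LMP7) read 1019 in WT, 879.6 in LT and 673 in 17kT, ratios of -0.21 and -0.60, with WT highest. Psmb9 (LMP2) read 529.8, 366 and 607, ratios of -0.53 and 0.20, with LT lowest. Psmb10 (MECL1) read 531, 516 and 506, ratios of -0.04 and -0.07. Their median was -0.21 in LT and -0.07 in 17kT, 0 of 3 passed 2-fold, and only Psmb8 in 17kT passed 1.5-fold. A dim 430B probe set of Psmb8 read 157 in WT and 171 in LT and was at the floor in 17kT.

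Each immunoproteasome subunit was set beside the standard subunit whose place it takes, as a difference of log2 ratios on 430A, in which a constant scaling factor of an array cancels. It was below 0 for all 3 pairs in both livers. Psmb9 less Psmb6 was -1.04 in LT and -0.32 in 17kT. Psmb8 less Psmb5 was -0.47 and -0.69, and Psmb10 less Psmb7 was -0.20 and -0.16. No spread between animals can be set beside these differences.

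Psmb9 shares its upstream region with Tap1, a subunit of the peptide transporter that feeds MHC class I, and the genes are read in opposite directions from starts 225 bases apart. That whole stretch, on the strand of Psmb9, held a CCAAT box 8 bases and an E2F site (TTGGCGC, here on the other strand) 98 bases before the Psmb9 start, and is shown because the genes on both sides of it had LT lowest.
Psmb9, chr17:34187331-34187555, minus strand: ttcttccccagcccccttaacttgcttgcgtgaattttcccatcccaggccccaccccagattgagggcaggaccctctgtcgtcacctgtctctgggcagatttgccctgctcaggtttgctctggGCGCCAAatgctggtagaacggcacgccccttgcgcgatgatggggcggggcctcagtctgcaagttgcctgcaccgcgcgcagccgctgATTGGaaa

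Tap1 read 415 in WT, 308 in LT and 578 in 17kT, ratios of -0.43 and 0.48, in the same order as Psmb9. In LT against 17kT the ratio was -0.73 for Psmb9 and -0.91 for Tap1, and for Psmb9 it lay between -0.97 and -0.57 over 6 scalings. The next genes on chromosome 17 were in another order: Psmb8 had WT highest, and Tap2 read 196, 179 and 169.9, ratios of -0.13 and -0.20. Tap1 and Tap2 were named after their values were seen.

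**Figure D4:**
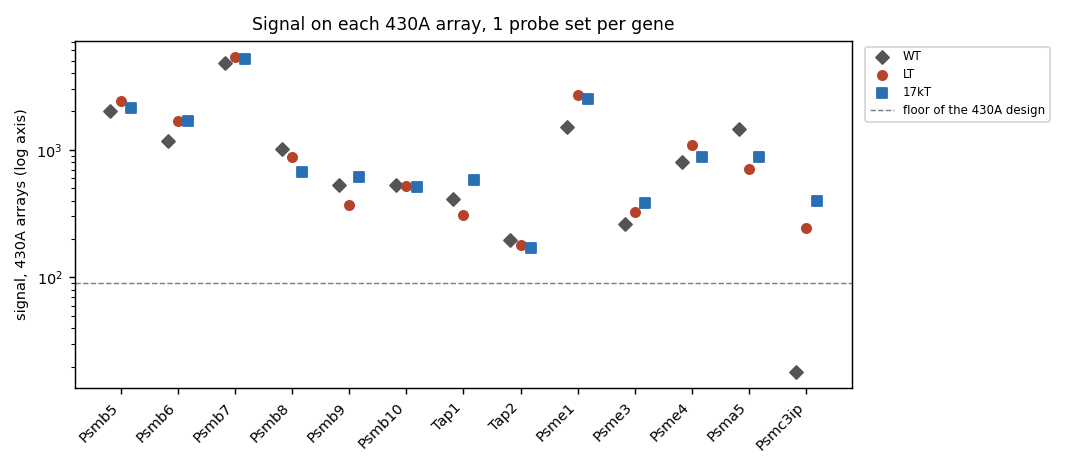
Signal on each 430A array (log axis) in WT, LT and 17kT for the cutting subunits Psmb5 to Psmb7, the immunoproteasome subunits Psmb8 to Psmb10, Tap1 and Tap2, the activators Psme1, Psme3 and Psme4, and Psma5 and Psmc3ip, 1 probe set per gene and 1 array per point; the dashed line is the floor. Heights compare within a gene and not between genes: LT is lowest for Psmb9 and Tap1, and WT is lowest for Psmb6, Psme1 and Psmc3ip.

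Other genes of MHC class I antigen processing had a median of -0.14 in LT and -0.19 in 17kT over 12 measured, with 1 higher and 0 lower in LT and 0 either way in 17kT. The one was H2-D1, a class I heavy chain (536 in WT, 1152 in LT, 911 in 17kT, 2.15-fold in LT); other class I genes of mice are close to it in sequence, so its probe set may read several. Of 20 interferon response genes in LT, 1 was higher (Cxcl10, 3.05-fold) and 3 lower (Iigp1 4.03-fold, Cxcl9 3.23-fold and Igtp 2.51-fold). In 17kT 19 were measured, 1 was higher (Cxcl10, 2.23-fold) and 3 lower (Cxcl9 at least 7.38-fold, Iigp1 3.07-fold and Igtp 2.77-fold). As background, Iigp1 and Igtp encode GTPases and Cxcl9 and Cxcl10 chemokines, and interferon gamma induces all of them. The counts of 4 of 20 and 4 of 19 are near the 20.1% and 18.6% of all measured genes past 2-fold, and the medians of the list were -0.03 and -0.06.

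Markers of immune cells, which can carry immunoproteasome RNA, also differed between the arrays, and their part in the values of Psmb8 and Psmb9 was not tested. Of 8 dendritic cell markers on the arrays 6 were above the floor, and Flt3 and Xcr1 were at the floor everywhere. The summed signal, after the floor, of the 7 markers on 430A was 3200.4 in WT, 1893 in LT and 1565 in 17kT. At least 2-fold lower were 2 of 6 in LT (Cd74 and H2-Ab1) and 4 of 6 in 17kT (these and H2-Aa and H2-Eb1). Of all measured genes 9.01% and 8.64% were lower. The genes called are all of the MHC class II pathway, which B cells and macrophages also express. Itgax had ratios of -0.19 in LT and -0.20 in 17kT, and Siglech, on 430B and outside the sum, of -0.37 and -0.15. The 11 Kupffer cell and macrophage markers on 430A summed to 14856, 13023 and 15633. Of 10 T and NK cell markers, Cd2, Cd3d, Cd3e, Cd3g, Cd4, Gzma and Nkg7 were at the floor on all arrays. The 7 B and plasma cell markers summed to 1103, 744 and 766, with Cd79b at the floor. The 7 neutrophil markers were all below the floor in WT, so their sum of 633 there is the floor and not a measured signal. They summed to 924 in LT and 679 in 17kT. Camp and Csf3r were at the floor on all arrays, and in 17kT only Elane and Mpo were above it.

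The activators that open the core from its ends were above WT for all 3 genes measured, with 0 of 3 past 2-fold. Psme1 (PA28 alpha), which interferon gamma induces and which works with the immunoproteasome, read 1514 in WT, 2708 in LT and 2513 in 17kT, ratios of 0.84 and 0.73, the largest in LT among the brightest probe sets of the proteasome genes that the naming rule takes in. The WT array was the lowest of the 3. Psme3 (PA28 gamma), the nuclear form, read 262, 328 and 383, ratios of 0.32 and 0.55, and its other probe set above the floor gave 0.89 and 0.49. Psme4 (PA200), which acts in the nucleus, read 797, 1094 and 878, ratios of 0.46 and 0.14. Psmf1 (PI31), which binds the core, read 543, 363 and 398, ratios of -0.58 and -0.45, but another probe set read 183, 126 and 291, so 17kT was above WT on that one (0.66). A dimmer probe set was below the floor in WT (70.8) and read 109 in LT and 200 in 17kT. Its ratios were at least 0.27 and 1.15, so the direction of Psmf1 depends on the probe set.

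The 7 assembly chaperones, which put the core and the base together and leave the finished particle, had a median of 0.26 in LT and 0.42 in 17kT, 6 of 7 above 0 in each and 0 past 2-fold. Psmg4 (PAC4) read 249.7 in WT, 381 in LT and 398 in 17kT, ratios of 0.61 and 0.67. Psmg2 (PAC2) read 205, 268 and 363 (0.39 and 0.82), its 430B probe set gave 0.09 and 0.82, and a further one -0.46 and -0.02. Psmg1 (PAC1), the partner of Psmg2 in the cell, read 567, 639.7 and 419, ratios of 0.17 and -0.44, so it had 17kT lowest where Psmg2 had it highest. Psmg3 (PAC3), the partner of Psmg4, read 335, 318 and 340.2 (-0.08 and 0.02). Among the chaperones of the base, Psmd5 had ratios of 0.26 and 0.05 and Psmd9 of 0.23 and 0.42, but the 430B probe set of Psmd9 read 232 in WT, 147 in LT and 205 in 17kT (-0.66 and -0.18), the other way. Psmd10 (gankyrin) was below the floor in WT at 86.8 and read 129 and 137 in LT and 17kT.

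The tissue-specific core subunits gave no clear reading in liver. Psma8, of the testis, read 4.20 in WT, 2.10 in LT and 4.10 in 17kT, all at the floor. Psmb11, of the thymic epithelium, read 263 in WT, 176 in LT and 236 in 17kT on 430B, where the floor is 140.5.

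The proteasome genes, like all measured genes, were spread least between LT and 17kT. In LT against 17kT 0 of 48 genes passed 2-fold either way, with 8.71% of 12541 measured genes past it (4.47% higher, 4.23% lower). At 1.5-fold 1 was higher and 2 lower, with 26.8% of genes past that (13.0% higher, 13.8% lower). Of the 48 genes 25 were above 0, next to 47.9% of all measured genes. Among the 38 bright genes 0 passed 2-fold and 24 were above 0, next to 8.52% (5.95% higher, 2.57% lower) and 60.2% of bright genes. The median was 0.02 (SD 0.30), next to -0.03 (SD 0.60) over all measured genes. Psmg1 was the highest at 0.61 (1.53-fold), and Psmb9 (1.66-fold lower) and Psmc3ip (1.63-fold lower) were the lowest. The 20S core had a median of 0.09, the base 0.12 and the lid -0.22, with 6 of 8 lid genes lower in LT. Those 6 include Psmd13 by its brightest probe set (-0.42), while its others gave 0.52, 0.36 and -0.05. The comparisons with WT share the WT array, so a low or high reading there enters both.

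Genes that work with the proteasome but fall outside the naming rule had a median of 0.40 in LT and 0.24 in 17kT over 13 measured. In LT 2 were higher and 1 lower, 3 of 13 next to 20.1% of all measured genes past 2-fold, and in 17kT 0 passed, next to 18.6%. Uchl5 (UCH37), a deubiquitinase bound to the base, read 255 in WT, 724 in LT and 434 in 17kT, 2.84-fold higher in LT. Zfand2a (AIRAP), an arsenite-induced partner of the 19S particle, read 129, 264 and 254, 2.04-fold higher. Pomp, the maturation factor of the core that is used up as each core is finished, read 1591, 670.1 and 862, 2.37-fold lower in LT (log2 ratio -1.25) and -0.88 in 17kT, below WT in both as Psma5 was.

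Of 9 ubiquitin and unfoldase genes, such as Vcp, the ATPase that extracts marked proteins, 0 passed 2-fold in either comparison, with medians of 0.26 and 0.07. In the list on control by NRF1 and NRF2, 6 genes were measured and Nfe2l2, the gene of NRF2, was higher in both livers: 943 in WT, 1955 in LT and 2193 in 17kT, 2.07-fold and 2.33-fold higher. Its 430B reading in 17kT did not show this (log2 ratio -0.02). Nfe2l1, the gene of NRF1, which drives proteasome genes when the enzyme is inhibited, had ratios of -0.33 and -0.07, and the medians of the list were -0.16 and 0.02.

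Other large complexes built of many subunits were set beside the 31 genes of the 26S particle (20S core, base, lid and Rpn10), whose medians were 0.22 in LT and 0.12 in 17kT, with 4 of 31 past 1.5-fold in each, next to 43.2% and 40.3% of all measured genes. The CCT chaperonin, which folds actin and tubulin, had medians of 0.76 and 0.48, and 8 of its 8 genes passed 1.5-fold in LT; Cct6a passed 2-fold there (2.30-fold). The translation factor eIF3 had medians of 0.59 and 0.40. In LT 6 of 11 were past 1.5-fold, all of them higher, next to 23.1% of all measured genes higher. Eif3a passed 2-fold there (2.37-fold). The COP9 signalosome, a relative of the lid that acts on cullin ubiquitin ligases, had medians of 0.19 and 0.19, with Cops8 past 2-fold in LT (2.25-fold). The 26S medians were thus close to the COP9 medians and below those of CCT and eIF3, a comparison of medians with no test.

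How the arrays are scaled sets where 0 lies. Over 6 scalings the median of all measured genes in LT against WT ran from -0.27 (probe sets present on both designs) to 0.40 (hybridisation controls), and the proteasome median ran with it, from -0.03 to 0.68. Taken relative to all genes, the proteasome median stayed between 0.13 and 0.28 in LT and between -0.03 and 0.42 in 17kT. This range is not corrected for brightness: under the main scaling the LT median was 0.20 for bright proteasome genes and 0.18 for all bright genes. The comparison with bright genes was not repeated under the other scalings. Of the 48 genes, 26 kept their sign under all 6 scalings in LT and 20 in 17kT. The signals as deposited nearly coincide with the main scaling, with a proteasome median of 0.221 in LT under each. They are thus not an independent check among the 6. Psma5 was below 0 and Psmb6, Psmc3, Psmc6, Psme1 and Psmc3ip above 0 under all 6 in both comparisons. Psmb9 was below 0 under all 6 in LT but changed sign in 17kT, and Psmb8 and Psmb10 changed sign in both. Scaled to the hybridisation controls, 6 genes were higher and 0 lower in LT and 13 higher and 0 lower in 17kT.

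**Figure D5:**
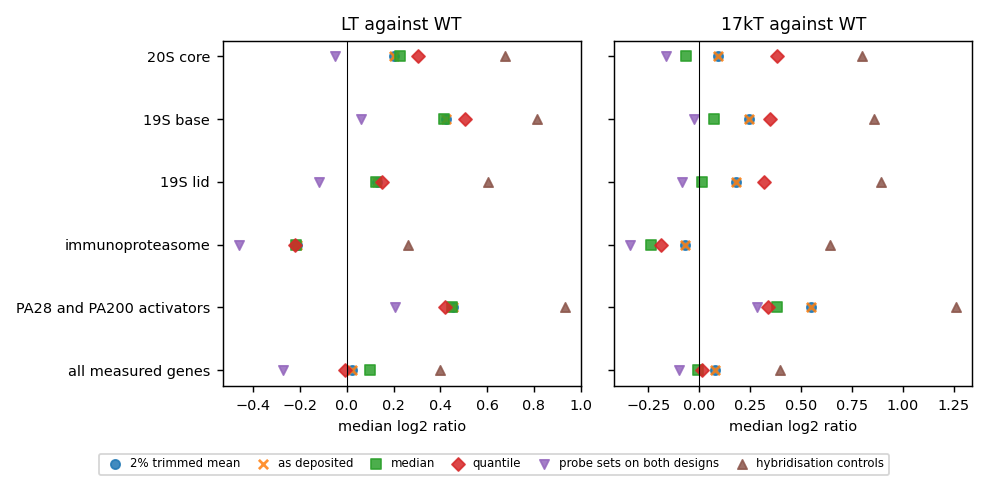
Median log2 ratio in LT against WT (left) and 17kT against WT (right) for the subcomplexes and for all measured genes under 6 scalings of the arrays. The groups shift together from scaling to scaling, and the PA28 and PA200 activators stay above 0 under all 6 in both panels, from 0.21 to 0.93 in LT and 0.28 to 1.26 in 17kT.

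The upstream bases of the genes were searched on both strands, over the 250 bases before the start, for the CCAAT box (CCAAT), the core of the antioxidant response element (TGACNNNGC), E2F sites (TTCCCGC or TTGGCGC), the core of the interferon-stimulated response element (GAAA, any 2 bases, then GAAA) and the gamma-activated site (TTCNNNGAA). RefSeq promoters were found for 41 of the 49 genes, 44 promoters in all, and the shares were set beside those of 32851 mouse promoters. CCAAT was in 16 of 44 (36.4%, against 33.8% of all), and the antioxidant core was at the share given above. An E2F form was in 5 of 44 (11.4%, against 5.62%): Psma1, Psmb9, Psmc2, Psmc4 and Psmd12. The interferon core was in 3 of 44 (against 2.98% of all) and the gamma-activated site in 2 of 44 (against 7.02%), Psmb8 and Psmg1. A match describes letters and is not a bound site.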

How the data were processed

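Liver RNA of 3 genotypes was measured on 6 Affymetrix arrays. Per the submitters' processing notes the tool was MAS5, and the deposited intensities are linear, with 1 value for a probe set. The authors had scaled them: each array's 2% trimmed mean lies between 250.03 and 250.12. The deposited settings files hold other, non-expression entries, of which the fluidics station was used. Gene symbols are those of the platform annotation.

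Signals were scaled within a design to a common 2% trimmed mean, floored at the median of the design and put on the log2 scale in python 3.11.15 with pandas 2.3.3 and numpy 2.4.6. A gene was represented by its brightest probe set relative to the floor, with _x_at probe sets used only where a gene had no other. With 1 array per genotype and design no test was possible, so a size rule of 2-fold was read against all measured genes. Precision is limited by the array number. Technical SDs were taken over the 100 probe sets that both designs carry (SD of the 430A less 430B ratio over the square root of 2). The code was tested on simulated arrays.

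The members and lists were chosen with earlier results of these data known. Of 192 entries in 17 other lists, 169 matched a gene and 23 were not analysed here. Values were printed for genes past 2-fold, the cutting and immunoproteasome subunits, the activators, the extremes of each subcomplex, and genes whose probe sets had opposite signs over 1 apart; other members were added to complete a subcomplex. The alternatives were 5 other scalings, 3 other floors, 2 other ways to take a gene's value, each design alone, the 26S subunits alone, and 1.5-fold and 3-fold rules.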

Additional observations from a re-analysis of the deposited data

How the results depend on the processing

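Counts are at 2-fold, of the 48 measured genes or of the fewer that a setting measures. A median counts as moved when it shifts by more than 1 technical SD. In LT against WT, scaling to the probe sets on both designs gave 0 higher and 3 lower, with medians of -0.028 (all), -0.049 (20S core), 0.061 (base), -0.12 (lid), -0.46 (immunoproteasome) and 0.21 (activators). Scaling to the hybridisation controls gave 6 higher and 0 lower, with medians of 0.68, 0.68, 0.81, 0.61, 0.26 and 0.93 in the same order. The count higher was 0 with the floor at the 75th percentile, among the 26S subunits alone, without Psmc3ip and Psme3ip1 and among genes over 4 times the floor, and 2 on 430A alone. The count lower was 0 with the floor as a pseudocount, with the mean over probe sets and on 430B alone. On that design 11 genes were measured, so its medians rest on very few. They were -0.24 (base, from Psmc2 and Psmc5), -0.66 (lid, Psmd13 alone) and 0.12 (immunoproteasome, a dim Psmb8 probe set alone). The 1.5-fold rule gave 5 higher and 2 lower, and the 3-fold rule 0 and 0.

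In 17kT against WT, the count higher was 0 under the median scaling, quantile normalization (core median 0.38), the floor at the 75th percentile, 430B alone, the 26S subunits alone, the genes without Psmc3ip and Psme3ip1 and genes over 4 times the floor, and 2 on 430A alone. Scaling to the probe sets on both designs gave 0 higher and 1 lower. Scaling to the hybridisation controls gave 13 higher and medians of 0.82 (all), 0.80 (core), 0.86 (base), 0.89 (lid), 0.64 (immunoproteasome) and 1.26 (activators). On 430B alone the medians were -0.16 (all 11 measured), -0.26 (core, from Psma1 and Psmb5) and -0.25 (lid, Psmd13 alone). The 1.5-fold rule gave 8 higher and 2 lower. In LT against 17kT, 430B alone gave 0.49 for the core, from Psma1, Psma3 and Psmb5. It gave -0.24 for the base, from Psmc2 and Psmc5, and -0.53 for the activators, a bound from Psme4 alone. The 1.5-fold rule gave 1 higher and 2 lower. Nfe2l2 in 17kT against WT turned from 1.22 to -0.020 on 430B alone. The cause of these shifts was not tested. In all, 71 counts and 196 medians were unmoved and 31 counts and 28 medians moved.

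No paired analysis was possible because each genotype has 1 array per design. Leaving out a replicate was not possible for the same reason. Signal over background limits the genes near the floor, such as Psmd10, Psmc3ip in WT and Psmb11, and the 430B readings, which rest on few of the genes.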
